A study of Arabidopsis thaliana with 4 samples.

Results

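10 genes of the iron deficiency response were examined in 10-day-old Arabidopsis thaliana seedlings, taken from the 32548 genes of the deposited table by their locus identifiers: the transcription factor genes BHLH38 (AT3G56970), BHLH39 (AT3G56980), BHLH100 (AT2G41240), BHLH101 (AT5G04150), FIT (AT2G28160), PYE (AT3G47640), URI (AT3G19860), ILR3 (AT5G54680) and BHLH115 (AT1G51070), and the ubiquitin ligase gene BTS (AT3G18290). All 10 were in the table and all 10 passed the filter on low values, a mean normalised count of at least 1. The study compared the wild type Col-0 with the mutant bdt1-/- in the Col-0 background, each as 2 libraries of whole seedlings grown on Murashige and Skoog medium plates at 22 degrees C in days of 16 h light and 8 h dark. The sources used here give neither the allele nor the number of independent mutant lines, and name no change in iron supply between the groups. The mutated gene, AT4G11560, was at 1135 and 1117 normalised counts in the Col-0 libraries and at 313 and 324 in the bdt1 libraries. The libraries held between 22914893 and 27435729 reads in genes, and the submitters describe them as biological replicates, with no word on whether they were grown or harvested apart.

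In plants that take up iron by reducing it at the root surface, low iron sets off a cascade of basic helix-loop-helix (bHLH) transcription factors. ILR3 and BHLH115, of the bHLH clade IVc, act with URI to switch on the clade Ib genes BHLH38, BHLH39, BHLH100 and BHLH101, whose products pair with FIT to induce the ferric reductase FRO2 and the iron transporter IRT1. PYE represses a further set of iron genes, and BTS, an iron-binding ubiquitin ligase, targets clade IVc factors for breakdown. The transcripts of the clade Ib genes, PYE and BTS are themselves known to rise when iron is short.

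Many bHLH factors bind the E-box, CANNTG, of which the G-box, CACGTG, is 1 form. Both motifs were searched in the 250 bases before the annotated gene start, from RefSeq TAIR10.1, the annotation of the same chromosome sequences as the build the submitters name. Each motif class reads the same on either strand, and every G-box is also an E-box. The windows of the 4 clade Ib genes, whose transcripts carry the main difference reported here, and of BTS, which has the most G-boxes of the 10, are printed 5′ to 3′ in the direction of transcription, with E-boxes in capitals. They lie at chr3:21085246-21085495 for BHLH38, chr3:21087711-21087960 for BHLH39, chr2:17199455-17199704 for BHLH100 and chr5:1139634-1139883 for BHLH101, all on the minus strand, and at chr3:6273716-6273965 on the plus strand for BTS.
BHLH38: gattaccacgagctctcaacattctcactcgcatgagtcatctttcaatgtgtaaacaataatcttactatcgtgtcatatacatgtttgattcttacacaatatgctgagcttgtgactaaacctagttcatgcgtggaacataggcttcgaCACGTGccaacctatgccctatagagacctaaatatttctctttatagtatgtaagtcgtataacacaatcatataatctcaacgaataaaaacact
BHLH39: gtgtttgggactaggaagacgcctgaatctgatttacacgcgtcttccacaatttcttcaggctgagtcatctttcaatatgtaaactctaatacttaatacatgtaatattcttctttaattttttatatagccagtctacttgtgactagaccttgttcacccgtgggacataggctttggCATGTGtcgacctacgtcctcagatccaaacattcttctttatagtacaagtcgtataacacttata
BHLH100: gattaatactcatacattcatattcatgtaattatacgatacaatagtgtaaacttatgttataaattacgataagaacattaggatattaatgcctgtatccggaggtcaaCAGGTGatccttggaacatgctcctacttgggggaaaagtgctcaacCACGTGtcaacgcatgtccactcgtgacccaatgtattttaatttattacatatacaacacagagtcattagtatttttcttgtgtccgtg
BHLH101: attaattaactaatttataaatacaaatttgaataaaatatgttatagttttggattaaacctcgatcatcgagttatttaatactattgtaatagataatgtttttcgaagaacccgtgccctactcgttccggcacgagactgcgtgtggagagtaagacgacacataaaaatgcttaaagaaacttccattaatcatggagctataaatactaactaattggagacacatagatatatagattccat
BTS: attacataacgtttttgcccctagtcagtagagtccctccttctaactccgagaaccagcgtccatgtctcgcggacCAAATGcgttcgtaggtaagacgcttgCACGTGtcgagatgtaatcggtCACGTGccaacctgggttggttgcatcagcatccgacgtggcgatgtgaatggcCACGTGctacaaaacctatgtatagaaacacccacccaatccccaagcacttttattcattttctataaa

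BHLH38 had 1 G-box, at -97 counted from the base before the gene start as -1. BHLH39, its tandem neighbour, had at -67 the E-box CATGTG and no G-box. BHLH100 had a G-box at -91 and a further E-box at -138. The BHLH101 window held neither motif. BTS had 3 G-boxes, at -146, -124 and -70, and another E-box at -173. A window with at least 3 G-boxes was found for 27 of 27443 genes, or 0.0984%. An E-box lay in the windows of 8 of the 10 genes, against 55.3% of all windows, and a G-box in those of 3 of the 10, against 6.49%. FIT, URI, ILR3 and BHLH115 each had a single E-box, at -249, -104, -197 and -242, and PYE had none. The windows of BHLH38 and BHLH39 also shared an identical run of 16 bases, tgagtcatctttcaat. These are matches of letters in short windows and show no binding.

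**Figure D1:**
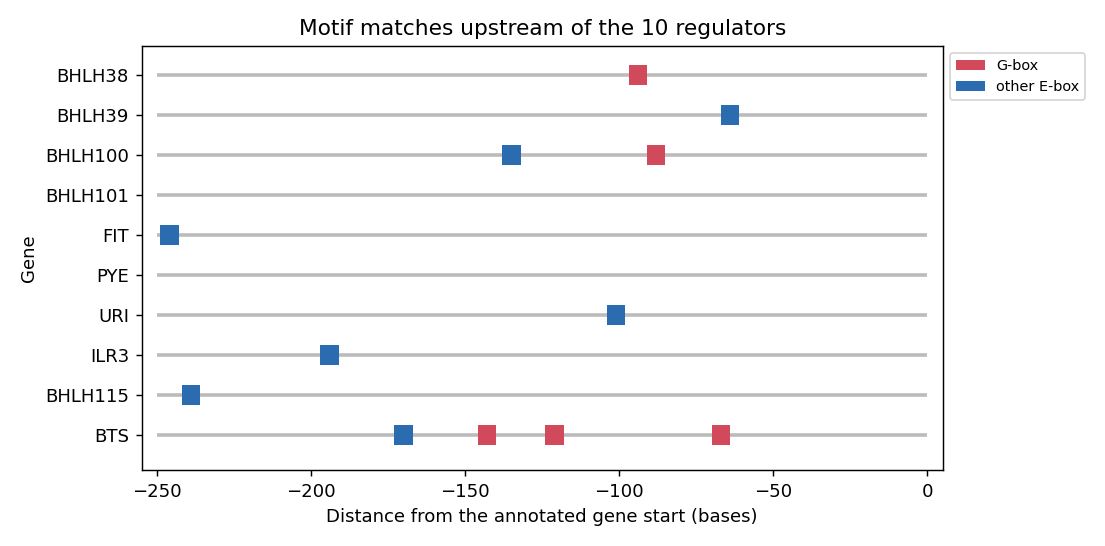
Positions of E-boxes and G-boxes in the 250 bases before the annotated start of each of the 10 genes, in bases from that start. BTS has 3 G-boxes, BHLH38 and BHLH100 have 1 each, and the BHLH101 and PYE windows have no E-box.

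The clade Ib genes stood higher in bdt1 than in Col-0, and 3 of the 4 passed the test. The values are the authors' normalised read counts. Differences were tested by limma on log2(normalised count + 1) over 23256 genes, with p-values adjusted over all of them by the Benjamini-Hochberg method and called under 0.05. Over all tested genes 1.2% were called higher in bdt1 and 0.856% lower, or 2.06% in either direction. Of the 10 iron regulators, 3 were called higher and 0 lower, the 3 being BHLH38, BHLH39 and BHLH100. At an unadjusted p under 0.05 in limma, 5 were higher and 1 lower, against 8.61% and 7.76% of all tested genes. On the recovered counts edgeR called 4 higher and 0 lower, against 1.45% and 1.12% of all genes, and DESeq2 called 5 higher and 0 lower, against 1.13% and 0.985%. With 2 libraries against 2, an exact permutation test of a single gene cannot give a two-sided p below 0.333, so every call rests on a spread that the tool in question shares across genes.

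BHLH38, a partner of FIT in activating iron uptake, was at 128 and 170 normalised counts in the Col-0 libraries 1 and 2 and at 526 and 339 in the bdt1 libraries 1 and 2. Both bdt1 libraries lay above both Col-0 libraries, although the bdt1 libraries were far apart. The means were 149 ± 29.7 and 433 ± 132 (SD, n = 2 each). BHLH38 rose by 1.51 on the log2 scale (SE 0.21, 95% interval 1.02 to 2.0, limma adjusted p = 0.012), a 2.85-fold difference and the largest among the 10 genes.

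BHLH39, the neighbouring gene with the same role, was at 200.0 and 232 in Col-0 and at 586 and 424 in bdt1. The groups did not overlap, and the library order was that of BHLH38. BHLH39 rose from 216 ± 22.9 to 505 ± 115 (SD, n = 2 each), or by 1.20 in log2 units (SE 0.16, 95% interval 0.84 to 1.57, limma adjusted p = 0.0086).

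BHLH100, the most abundant gene of the clade here, was at 504 and 719 in Col-0 and at 1242 and 1073 in bdt1. Its groups did not overlap either, with the bdt1 libraries closer to each other than the Col-0 libraries. The mean of BHLH100 was 612 ± 152 in Col-0 and 1158 ± 120 in bdt1 (SD, n = 2 each), and the gene rose by 0.94 in log2 units (SE 0.15, 95% interval 0.59 to 1.28, limma adjusted p = 0.022).

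BHLH101, the least abundant member of the clade, was at 78.6 and 113 in Col-0 and at 207 and 166 in bdt1, again with no overlap. Its log2 difference of 0.97 (SE 0.21, 95% interval 0.49 to 1.45) was close to that of BHLH100 but did not pass the threshold in limma (adjusted p = 0.061). On the recovered read counts the edgeR quasi-likelihood test called BHLH101 (adjusted p = 0.042), and so did DESeq2 (adjusted p = 0.035). No test of whether BHLH101 differed from the other clade Ib genes was made.

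**Figure D2:**
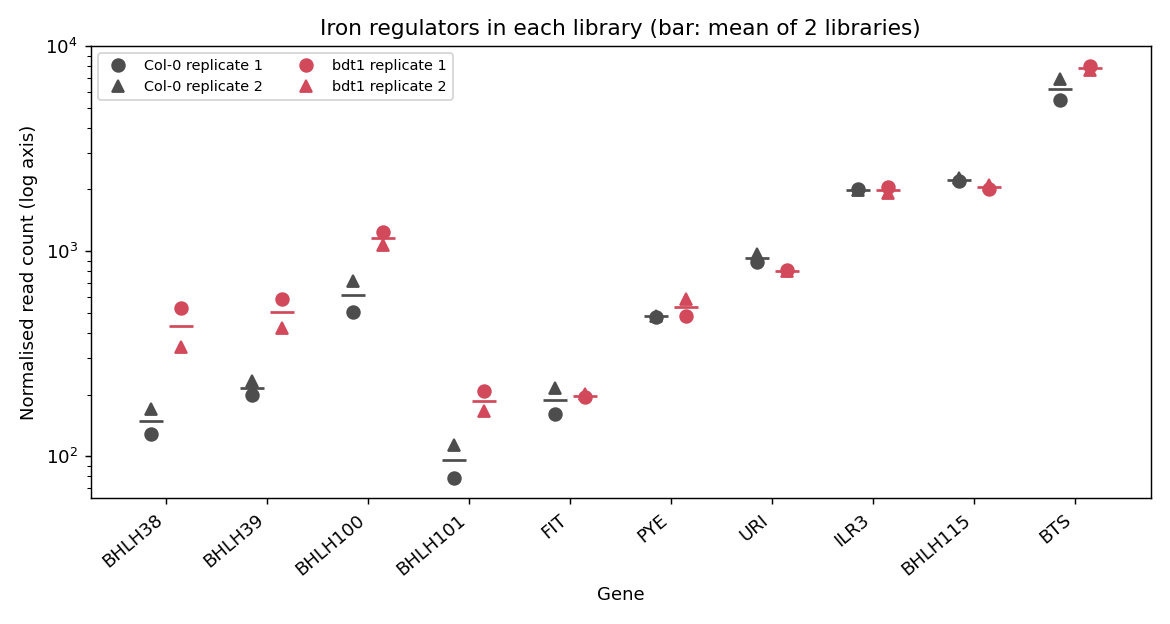
Normalised read count of each of the 10 genes in each library, on a log axis, with points for the 2 Col-0 and 2 bdt1 libraries and bars for the group means. For BHLH38, BHLH39, BHLH100 and BHLH101 both bdt1 points lie above both Col-0 points, as they also do for BTS, while FIT, PYE and ILR3 overlap.

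FIT, the bHLH factor that works with the clade Ib products in the root epidermis, was at 161 and 214 normalised counts in Col-0 and at 194 and 202 in bdt1. The bdt1 libraries lay between the Col-0 libraries. The log2 difference was 0.09 (SE 0.16, limma adjusted p = 0.83), with a 95% interval of -0.28 to 0.46 that leaves room for a change of either sign.

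Set against FIT within each library, the clade Ib transcripts separated the genotypes. The ratio of BHLH38 to FIT normalised counts was 0.796 and 0.794 in Col-0 and 2.71 and 1.68 in bdt1. The ratio of BHLH39 to FIT was 1.24 and 1.08 in Col-0 and 3.02 and 2.1 in bdt1. For BHLH100 the ratio to FIT was 3.13 and 3.36 in Col-0 against 6.41 and 5.32 in bdt1, and for BHLH101 it was 0.488 and 0.529 against 1.07 and 0.825. In all 4 ratios both bdt1 libraries lay above both Col-0 libraries, as they already did for the clade Ib counts alone. The ratios share FIT as denominator and are not independent readings. Each had an exact permutation p of 0.333 (two-sided), the smallest that 2 against 2 can give. Within the clade, the ratio of BHLH38 to BHLH100 was 0.255 and 0.237 in Col-0 and 0.423 and 0.316 in bdt1. The exact permutation p was again 0.333 and no other test was made, so whether the balance within the clade differed was not settled.

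The factors placed upstream of clade Ib were not called. ILR3, a clade IVc activator, was at 2003 and 1977 in Col-0 and at 2046 and 1923 in bdt1, so the bdt1 libraries lay on either side of the Col-0 libraries. The log2 difference of ILR3 was -0.0047 (SE 0.06), and its 95% interval of -0.14 to 0.13 is among the narrowest of the 10 genes. BHLH115, of the same clade, was at 2202 and 2265 in Col-0 and at 2016 and 2108 in bdt1. Both bdt1 libraries of BHLH115 were below both Col-0 libraries, with a log2 difference of -0.12 (SE 0.06, 95% interval -0.25 to 0.01, limma adjusted p = 0.36).

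URI, also known as bHLH121 and the partner of clade IVc factors, was at 889 and 966 in Col-0 and at 809 and 799.7 in bdt1. The bdt1 libraries were again below, by -0.20 on the log2 scale (SE 0.07, 95% interval -0.37 to -0.04), and the difference was not called (limma adjusted p = 0.22). The interval is for a single gene, without adjustment for the number of genes tested.

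Of the negative regulators, PYE, a bHLH repressor of iron genes, was at 477 and 485 in Col-0 and at 482 and 587 in bdt1. One bdt1 library lay between the Col-0 libraries and the other above them, and the log2 difference was 0.14 (SE 0.11, 95% interval -0.10 to 0.39, limma adjusted p = 0.55). BTS, the ubiquitin ligase, was at 5481 and 6916 in Col-0 and at 7955 and 7608 in bdt1. Both bdt1 libraries of BTS lay above both Col-0 libraries, with means of 6199 ± 1015 and 7781 ± 245 (SD, n = 2 each). The log2 difference was 0.34 (SE 0.10, 95% interval 0.12 to 0.56) and was not called in limma (adjusted p = 0.13), while DESeq2 on the recovered counts called it (adjusted p = 0.039).

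**Figure D3:**
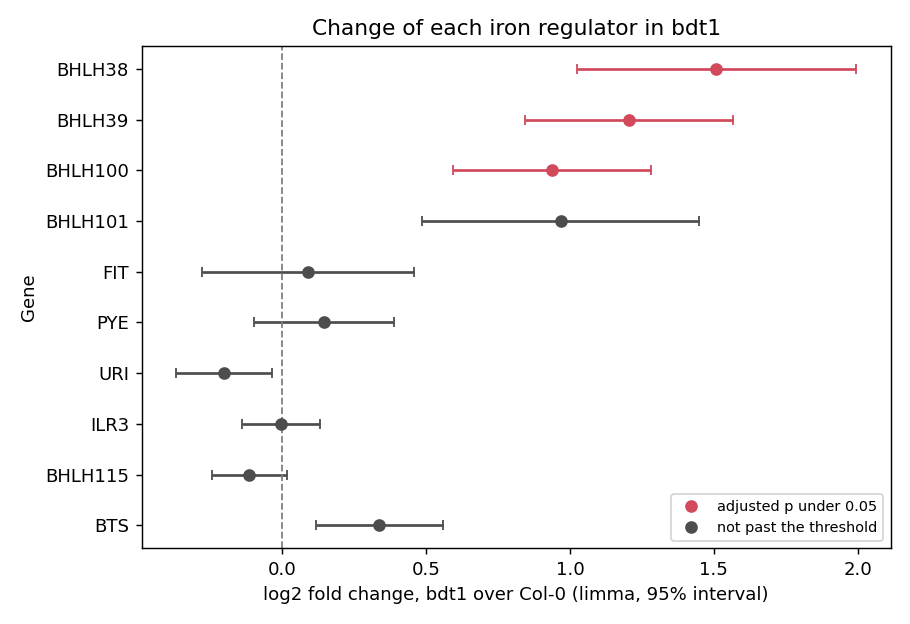
Log2 difference, bdt1 minus Col-0, of the 10 genes with its 95% interval from limma, with called genes marked. The 4 clade Ib genes lie between 0.94 and 1.51, and the other 6 between -0.20 and 0.34.

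Over the 4 clade Ib genes the median log2 difference was 1.09, over the other 6 genes 0.0422, and over all tested genes 0.0034. Both bdt1 libraries were above both Col-0 libraries for 5 of the 10 genes and below them for 2, where 25.2% and 23.7% of all tested genes lay so. The clade Ib genes gave 4 of the 5 and BTS the other. Summed over the clade, normalised counts were 911 and 1235 in Col-0 and 2561 and 2002 in bdt1.

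The libraries of 1 genotype differed in the same direction across the clade. Col-0 library 1 was below Col-0 library 2 for 4 of 4 clade Ib genes and for 5 of the other 6, and bdt1 library 1 was above bdt1 library 2 for 4 of 4 and for 3 of the other 6. Over all tested genes the corresponding shares were 49.8% and 48.5%. The 4 genes thus shared their deviations within each genotype, and are not 4 independent readings of the difference.

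Leaving out libraries changed which genes were called. Without Col-0 library 1, limma no longer called BHLH38 (log2 difference 1.31, adjusted p = 0.059) and still called BHLH39 (1.10, adjusted p = 0.048) and BHLH100 (0.68, adjusted p = 0.028). Without Col-0 library 2, limma also called BHLH101 (1.23, adjusted p = 0.045) and BTS (0.51, adjusted p = 0.0089). Without either bdt1 library, limma called 0 genes in the whole table, AT4G11560 included, with 1558 and 1599 genes at an unadjusted p under 0.05. The edgeR quasi-likelihood test on recovered counts called 514 and 634 genes there, BHLH38, BHLH39 and BHLH100 among them both times. In these fits bdt1 is 1 library, assumed to vary like the 2 Col-0 libraries, so the calls are no test of the spread among bdt1 seedlings. Among the 10 regulators, BHLH38 moved most, from a 2.28-fold difference without bdt1 library 1 to 3.53-fold without bdt1 library 2, and the 4 clade Ib genes stayed higher in bdt1 in each of these fits.

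**Figure D4:**
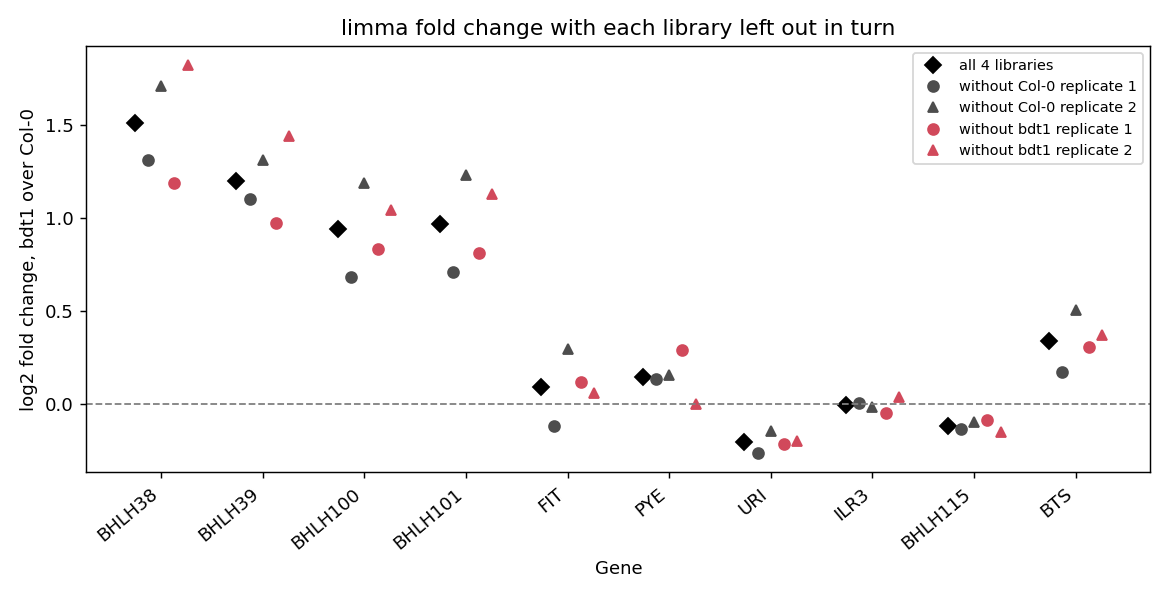
Log2 difference, bdt1 minus Col-0, of the 10 genes with all 4 libraries and with each library left out, from limma. BHLH38 ranges from 1.19 to 1.82, and FIT and ILR3 change sign between fits.

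Per kilobase of exon, the scale on which genes can be compared, the lowest Col-0 level was that of BHLH101, at 88.6 ± 22.7 normalised counts per kb (SD, n = 2, as for the means that follow). FIT at 136 ± 27.3 and BHLH38 at 138 ± 27.4 overlapped in Col-0, followed by BHLH39 at 178 ± 18.9 and PYE at 347 ± 4.38. URI at 459 ± 26.7 and BHLH100 at 529 ± 132 overlapped. The highest levels were those of BTS at 1379 ± 226, ILR3 at 1506 ± 14.0, which overlapped with BTS, and BHLH115 at 1672 ± 33.0.

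The order differed in bdt1. FIT became the lowest at 143 ± 4.02 per kb, and BHLH101 stood above it at 172 ± 26.7. BHLH38 at 399.8 ± 122 and BHLH39 at 415 ± 94.5 overlapped with URI at 398 ± 3.16 and with PYE at 386 ± 54.0, while in Col-0 both were below PYE and URI in every library. BHLH100 at 1000.5 ± 104 stood apart from its neighbours in the order. BTS at 1731 ± 54.6 came out highest, above BHLH115 at 1543 ± 48.6 and ILR3 at 1501 ± 65.6, which overlapped with each other.

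BHLH38 and BHLH39 lie in tandem on the minus strand of chromosome 3, at chr3:21084035-21085245 and chr3:21086390-21087710, with 1144 bases between them. BHLH100 is at chr2:17198037-17199454 and BHLH101 at chr5:1138410-1139633, both also on the minus strand. The neighbours of the tandem pair were not called: AT3G56950 differed by 0.04 on the log2 scale, AT3G56960 by 0.16 (limma adjusted p = 0.53) and AT3G56990 by -0.08 (limma adjusted p = 0.68). The 3′ part of BHLH38 overlaps AT3G56960 on the opposite strand by 386 bases, and AT3G56960 averaged 243 normalised counts in Col-0 and 272 in bdt1. BHLH101 overlaps AT5G04140 on the opposite strand by 79 bases, and AT5G04140 averaged 78588.5 in Col-0 and 78423.9 in bdt1. Whether the counting used strand is not given in the sources used here, so reads from such overlaps cannot be assigned with certainty. ILR3 overlaps the long noncoding RNA gene AT5G08235 on the opposite strand by 630 bases, and that gene averaged 9.38 and 2.51 normalised counts.

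The coding sequences of BHLH38 and BHLH39 were 84.8% identical over 762 aligned bases, but their longest identical run was 34 bases, below the read length of 150 bases. The longest run BHLH100 shared with either was 32 bases, and BHLH101 shared runs of at most 13 bases with the 3 others. How reads matching several genes were counted is not given in the sources used here.

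Around the 10 regulators, 41 related iron genes in 4 lists were followed, not all of them tested. By limma 4 were called higher and 1 lower, against 1.2% and 0.856% of all tested genes. Among 9 other iron regulators, 8 were tested and 0 called in either direction by limma, edgeR or DESeq2, with 3 higher and 2 lower at an unadjusted p under 0.05 in limma, which 16.4% of all tested genes reached in either direction. The clade IVc genes BHLH34 and BHLH104 differed by -0.14 and -0.19 on the log2 scale. BHLH11 was at 30.8 and 38.7 normalised counts in Col-0 and at 61.0 and 49.9 in bdt1, which did not overlap, with a log2 difference of 0.66 that was not called (limma adjusted p = 0.27).

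Among 14 genes of FIT-dependent iron uptake, 12 were tested, with a median log2 difference of 0.0889. None of the 12 was called by limma, edgeR or DESeq2, and 2 were higher and 1 lower at an unadjusted p under 0.05 in limma, against the same 16.4% of all tested genes. IRT1, the main iron transporter of the root epidermis, was at 76.4 and 109 in Col-0 and at 32.0 and 73.6 in bdt1. Both bdt1 libraries of IRT1 were below both Col-0 libraries, and the log2 difference of -0.89 (SE 0.37) was not called in limma (adjusted p = 0.28). With a replicate block limma called IRT1 lower, in a fit that called 7.82% of all tested genes against 2.06% without the block. In edgeR the IRT1 difference went from -0.34 without bdt1 library 1 to -1.55 without bdt1 library 2. In limma without bdt1 library 1 the IRT1 difference was -0.31, and without bdt1 library 2 it was -1.48. FRO2, the root ferric reductase, was at 61.5 and 80.1 in Col-0 and at 49.6 and 57.8 in bdt1, a log2 difference of -0.38 (SE 0.24) that was also not called in limma (adjusted p = 0.47). Others of the list went the other way, and 8 of the 12 log2 differences were positive. Both bdt1 libraries lay above both Col-0 libraries for 6 genes and below them for 3, against 25.2% and 23.7% of all tested genes. AT3G58060 was at 6.39 and 9.22 in Col-0 and at 24.1 and 17.6 in bdt1, a log2 difference of 1.31 that was not called (limma adjusted p = 0.18). IREG2, a ferroportin-type metal transporter of the vacuole membrane, was at 47.7 and 59.8 in Col-0 and at 98.8 and 76.3 in bdt1, with a log2 difference of 0.69 that was not called (limma adjusted p = 0.20).

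Of 10 targets of PYE or of the clade IVc factors, 4 were called higher and 1 lower in limma. Over all tested genes the shares were 1.2% and 0.856%. The median log2 difference of the 10 was 0.37. NAS4, ZIF1, OPT3 and NRAMP4 were not called and overlapped between the genotypes. Their log2 differences were -0.0058, -0.0014, 0.026 and 0.098. NAS2, with a log2 difference of 0.64, was not called either (limma adjusted p = 0.35). FRO3, a ferric reductase of mitochondria, was at 894 and 1072 in Col-0 and at 1847 and 1593 in bdt1, and rose by 0.81 in log2 units (SE 0.10, adjusted p = 0.0069 in limma). AT1G47395 was at 185 and 173 in Col-0 and at 395 and 394 in bdt1, and rose by 1.14 (SE 0.11, limma adjusted p = 0.0028). For neither gene did the libraries of the genotypes overlap.

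AT1G47400, which shares an identical run of 59 transcript bases with AT1G47395, was at 216 and 261 in Col-0 and at 379 and 376 in bdt1, and rose by 0.67 (SE 0.12, limma adjusted p = 0.033). AT2G30766 was at 263 and 336 in Col-0 and at 528 and 470 in bdt1, and rose by 0.74 (SE 0.13, limma adjusted p = 0.031). FRD3, a transporter that loads citrate into the xylem, was at 564 and 511 in Col-0 and at 371 and 351 in bdt1. FRD3 was called lower, with a log2 difference of -0.57 (SE 0.09, adjusted p = 0.025 in limma). Without Col-0 library 1, limma called neither AT1G47400, AT2G30766 nor FRD3. The reference annotation gives no name to the 3 genes printed by locus.

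Among 8 genes of iron storage and its transport, 0 were called in either direction by limma, edgeR or DESeq2, and the median log2 difference was -0.18. At an unadjusted p under 0.05 in limma, 0 were higher and 3 lower, against 8.61% and 7.76% of all tested genes. The 3 were the ferritin genes FER3 and FER4, with log2 differences of -0.20 and -0.25, and the metal chelate transporter gene YSL1, with -0.34. FER1, the main ferritin of leaves, was at 3735 and 3079 in Col-0 and at 3888 and 3669 in bdt1, with overlapping groups and a log2 difference of 0.16 (SE 0.09, limma adjusted p = 0.42).

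**Figure D5:**
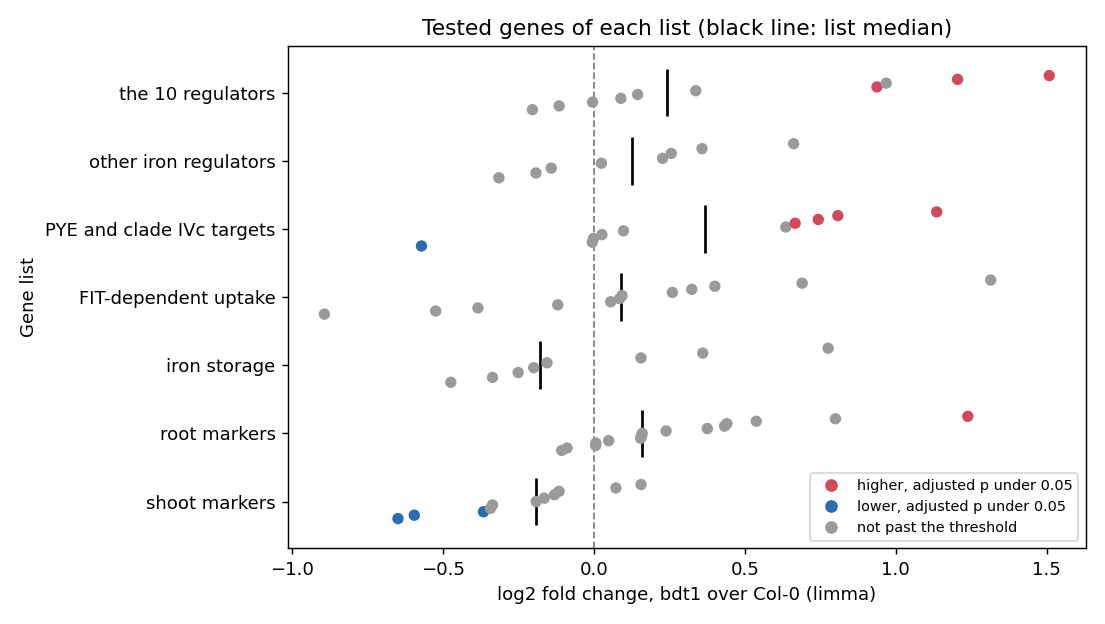
Log2 difference, bdt1 minus Col-0, for each tested gene of the iron regulators, the 4 related iron lists and the root and shoot marker lists, with the median of each list. The iron regulators have a median of 0.24, the targets of PYE and clade IVc 0.37, and the shoot markers -0.19.

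Because the libraries come from whole seedlings, a change in the share of root or shoot tissue and a change in RNA per cell cannot be told apart. Of 15 root markers, 1 was called higher, the aquaporin gene TIP2;3 at 147 and 136 in Col-0 and 342 and 327 in bdt1, and 0 lower. The log2 difference was positive for 13 of the 15, with a median of 0.16. Both bdt1 libraries lay above both Col-0 libraries for 7 and below them for 0, against 25.2% and 23.7% of all tested genes. By limma, 1.2% of all tested genes were called higher and 0.856% lower. The summed root marker level was 43937.5 to 47517.6 in Col-0 and 45767.7 to 46564.5 in bdt1, nearly all of it from PYK10. Without PYK10, a choice made after the values were seen, it was 1540.4 to 1812 in Col-0 and 1947 to 2003 in bdt1. Of 11 shoot markers, 3 were called lower, the light-harvesting genes LHCA1, LHCB2.1 and LHCB3, and 0 higher. Both bdt1 libraries lay below both Col-0 libraries for 9 of the 11 and above them for 1, against 23.7% and 25.2% of all tested genes. The median log2 difference was -0.19. The summed shoot marker level was 640991 to 674083 in Col-0 and 607456 to 615515 in bdt1. Without the 3 most abundant, RBCS1A, RCA and CA1, it was 32980.6 to 36468.9 in Col-0 and 24579.4 to 25444.5 in bdt1. That choice too was made after the values were seen. Most of the remainder came from the 3 light-harvesting genes called lower, and the 1 marker that lay above, CA1, was left out of it. Root markers were thus mostly higher and shoot markers mostly lower in the libraries in which the clade Ib genes were higher. Of 10 clock genes, 1 was called lower, PRR5, and 0 higher. For 4 of the 10 both bdt1 libraries lay above both Col-0 libraries and for 3 below, against 25.2% and 23.7% of all tested genes. The log2 difference was positive for 5 and negative for 5. The summed clock level was 8938 to 9214 in Col-0 and 8994 to 9002 in bdt1. Such a sum can stay level while single genes differ in opposite directions. No marker of the 3 lists was at 0 in both groups. The part of tissue share or harvest time in the clade Ib difference was not tested.

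The genes whose profile over the 4 libraries lay nearest to the mean clade Ib profile, by Euclidean distance of centred log2 values among 17661 tested genes with a mean of at least 50, were AT3G02610 (distance 0.126), AT3G09480 (0.181), AT1G49570 (0.188), AT1G69480 (0.203) and AT3G22910 (0.222). The profile has only 4 points. AT3G02610, annotated as a stearoyl-acyl desaturase family gene, was at 29.7 and 35.9 normalised counts in Col-0 and at 81.9 and 60.6 in bdt1, with no overlap. AT1G49570, a peroxidase gene, was at 84.7 and 99.3 in Col-0 and at 211 and 170 in bdt1. AT3G09480, of the histone superfamily, was at 44.6 and 63.6 in Col-0 and at 144 and 120 in bdt1. Having been chosen for a profile that is high in bdt1, these 5 had to be higher there, and AT3G02610, AT1G69480 and AT3G22910 reached the mean of 50 only through bdt1.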

How the data were processed

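RNA of whole seedlings was sequenced in paired reads of 150 bases, in 2 Col-0 and 2 bdt1 libraries grouped by title; the mutant's source label has btl1 instead. Reads were processed with HISAT2 2.2.0, edgeR and the TAIR10 build, per the submitters' processing notes. Counter, annotation and strandedness: not given in the sources used here. Each deposited signal value is a normalised read count per gene and library. By its values it is a count adjusted to a common library size, as edgeR's pseudo-counts are, and inverting that adjustment gave whole reads for 100% of values within 0.001 reads. Recovered totals were 23529796 and 27435729 reads in Col-0 and 22914893 and 25120921 in bdt1.

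limma 3.58.1 in R 4.3.3 was fitted, using a mean-variance trend without any block, to log2(normalised count + 1), a scale that understates changes of low genes, for 23256 genes with a mean of at least 1, with Benjamini-Hochberg adjustment over all of them. Standard deviations are between libraries of 1 genotype. Count tests (edgeR 4.0.16, DESeq2 1.42.0), other scalings, pseudocounts and filters, a replicate block and leave-outs were alternatives; scripts were tested on simulated data. On the recovered reads the edgeR quasi-likelihood test called 338 genes higher and 260 lower. Named genes were the 10 members, the called genes of 4 iron lists, IRT1, FRO2, FER1 and the loci AT1G47400, AT1G47395 and AT2G30766, the 5 nearest profiles and AT4G11560. BHLH11, BHLH34, BHLH104, AT3G58060, IREG2, NAS2, NAS4, ZIF1, OPT3, NRAMP4, FER3, FER4, YSL1, marker genes and neighbours were named after their values were seen. The members and lists were chosen with earlier results of these data known. Sequences and annotation are from RefSeq TAIR10.1.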

Additional observations from a re-analysis of the deposited data

How the results depend on the processing

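Counts of called genes depended on how the spread was estimated. limma without the mean-variance trend called 0 of the 10 regulators, and among the related iron genes 0 higher and 0 lower, with 42 genes higher and 6 lower over the whole table and 2937 at an unadjusted p under 0.05. DESeq2 on recovered counts called 5 regulators higher. Same-numbered libraries did not deviate together over all genes (r = -0.0116 over 23256 genes). Whether they were grown or harvested in pairs is not given, and this value cannot settle it. With the replicate number as a block, limma called 5 regulators and 5 related genes higher and 5 related genes lower. It called 7.82% of all genes there, against 2.06% without the block. Over fits without 1 library, limma called 0 to 5 regulators and 0 to 4 related genes higher and 0 to 1 related genes lower. The limma share over all genes went from 0% to 2.72% there. The 0 regulators came from the fits without a bdt1 library, where limma called 0 genes in the whole table. Without 1 library edgeR called 3 to 5 regulators and 4 to 8 related genes higher and 1 to 7 related genes lower. The edgeR share over all genes went from 2.21% to 10.7%. ILR3 changed sign under quantile normalisation (0.027), without Col-0 replicate 1 (0.00475 in limma, 0.00536 in edgeR) and without bdt1 replicate 2 (0.0398 and 0.0404), with a lowest value of -0.0493 without bdt1 replicate 1 (-0.055 in edgeR), and FIT changed sign without Col-0 replicate 1 (-0.116 and -0.112, against 0.294 at the other end, without Col-0 replicate 2). The cause was not tested. Over the 24 named genes and 20 alternatives, 405 values kept direction and side of the threshold, 39 were no longer called, 29 became called and 7 reversed. With 2 libraries a genotype, the interval of FIT still holds changes of either sign, and 1 library can move a call.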
